A study of Mus musculus with 37 samples.

Results

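Genes of the T cell receptor and its CD3 partners were followed in natural killer cells of the pregnant mouse uterus. The members were named as a list and not picked by a rule on their measured values, although earlier results of these data were known. They are the constant (C) genes of the gamma chain Tcrg-C1, Tcrg-C2 and Tcrg-C4, the beta constant genes Trbc1 and Trbc2, the alpha and delta constant genes Trac and Trdc, and the CD3 genes Cd3d, Cd3e and Cd3g. All 10 were found among the 53700 genes counted in each of 37 libraries.

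T cells carry a receptor made of an alpha and a beta chain or of a gamma and a delta chain, and each chain is encoded only after a variable (V), a joining (J) and, for beta and delta, a diversity (D) segment have been joined and spliced to a constant gene. The chains reach the cell surface with the CD3 gamma, delta and epsilon subunits and with the zeta chain Cd247, which pass the signal on. Natural killer (NK) cells do not rearrange these genes to make a receptor, but transcripts from unrearranged receptor loci and from some CD3 genes have been described in NK cells and other innate lymphocytes, so their RNA alone does not mark a T cell.

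Uterine NK (uNK) cells were sorted from C57BL6 mice at gestation day 9.5 to 10.5 as live single cells that carried CD45 and NKp46 and lacked, among other markers, surface CD3, CD4, CD8 and high CD11b, and RNA of each library was sequenced after SMART-Seq amplification. Because cells with surface CD3 were gated out, a lack of the receptor on the surface was selected by the sort and is no result. Cells that carried both NKG2A and Ly49C/I were not collected. For 4 of the 6 Ly49C/I+ WT libraries the number in the title differs from that in the description, and the description's numbers are used here. Cells without NKG2A and Ly49C/I, called uneducated, gave 9 libraries from wild type (WT) mice and 8 from mice labelled NKG2A KO. Cells with NKG2A and without Ly49C/I gave 9 WT libraries, and cells with Ly49C/I and without NKG2A gave 6 WT and 5 NKG2A KO libraries. NKG2A and Ly49C/I are inhibitory receptors through which NK cells are educated by self class I molecules. The labels do not describe the NKG2A KO allele, do not say whether animals were pooled and do not say that libraries of a group came from separate mice, so p-values measure the spread between libraries.

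Libraries held between 13287163 and 18875033 reads on genes, with 13982 to 17859 genes read at least once. Levels are given in CPM, read counts divided by the TMM-scaled total of the library. Klrc1, the NKG2A gene, lay between 495 and 753 CPM in the 9 NKG2A+ libraries and at 13.9 CPM or less in every other library. Klra9, which encodes Ly49I, was at 452 CPM or more in every Ly49C/I+ library and at 124 CPM or less elsewhere. Klra3, which encodes Ly49C, did not follow the sort and was lowest in Ly49C/I+ WT cells (54.9 ± 19.5 CPM, n = 6). All 14 genes of an NK cell list were read in every library, and Ncr1, which encodes NKp46, ranged from 463 to 1023 CPM.

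The constant genes occur as near copies, which decides what could be counted. In the first 60 bases of the annotated gamma constant genes, shown to make their likeness visible, capitals mark the 11 positions at which the 3 are not all the same.
Tcrg-C1: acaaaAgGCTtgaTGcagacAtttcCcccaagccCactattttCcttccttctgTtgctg
Tcrg-C2: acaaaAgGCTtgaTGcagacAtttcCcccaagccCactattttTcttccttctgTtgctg
Tcrg-C4: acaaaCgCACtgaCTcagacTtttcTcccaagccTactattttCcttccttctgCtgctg
Only 1 of these positions separates Tcrg-C1 from Tcrg-C2, whose coding sequences are 94.6% identical, while Tcrg-C4 is 72.2% identical to Tcrg-C1 and 71% to Tcrg-C2. Of all 50-base stretches, 34.2% of those in Tcrg-C1 and 25.4% of those in Tcrg-C2 also occur in another gene, and 0 of those in Tcrg-C4 do. Reads of Tcrg-C1 and Tcrg-C2 are therefore uncertain, and those of Tcrg-C4 are its own. In GRCm38 (GENCODE M21) Tcrg-C1 lies at chr13:19214103-19217024 on the plus strand, Tcrg-C2 at chr13:19304649-19307551 on the minus strand and Tcrg-C4 at chr13:19344558-19352756 on the plus strand.

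Both beta constant genes begin with the same 60 bases, and they differ at 23 of 518 coding bases. The last 60 coding bases, from position 459 to 518, hold 11 of these differences, in capitals.
Trbc1: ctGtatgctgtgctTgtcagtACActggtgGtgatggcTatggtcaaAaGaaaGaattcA
Trbc2: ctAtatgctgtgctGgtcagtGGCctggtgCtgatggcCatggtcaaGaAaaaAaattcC
Of their 50-base stretches 40.5% in Trbc1 and 44% in Trbc2 occur in the other gene, so reads without a unique position are missing from both levels. Trbc1 lies at chr6:41538218-41539881 and Trbc2 at chr6:41546730-41548352, both on the plus strand. Trac (chr14:54220521-54224206, plus strand) shares no such stretch. Trdc (chr14:54142851-54148868, plus strand) overlaps exons of Trdv5 and Gm43434 on the minus strand, and Cd3e (chr9:44998740-45009627, minus strand) overlaps an exon of Gm48719, so reads of these pairs cannot be told apart in libraries that do not mark strand. Cd3d lies next to them at chr9:44981786-44987339 on the plus strand and Cd3g at chr9:44969572-44980431 on the minus strand.

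Beta constant transcripts were by far the most abundant of the set. Per kilobase of exon, the mean over 37 libraries was 479 CPM for Trbc1 and 197 CPM for Trbc2. Trac (32.4), Cd3g (30.1), Tcrg-C4 (22.2) and Trdc (14.2) followed, and Cd3d (9.31), Tcrg-C2 (3.21), Tcrg-C1 (2.64) and Cd3e (1.69) were lowest, all in CPM per kilobase. Trbc1, Trbc2, Trac, Trdc, Cd3d and Cd3g had reads in every library, whereas Tcrg-C4 and Cd3e each lacked reads in 1 library, Tcrg-C2 in 4 and Tcrg-C1 in 5. A library without a read allows up to 3 reads, which is between 0.159 and 0.226 CPM, and such limits cover counting error only.

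**Figure D1:**
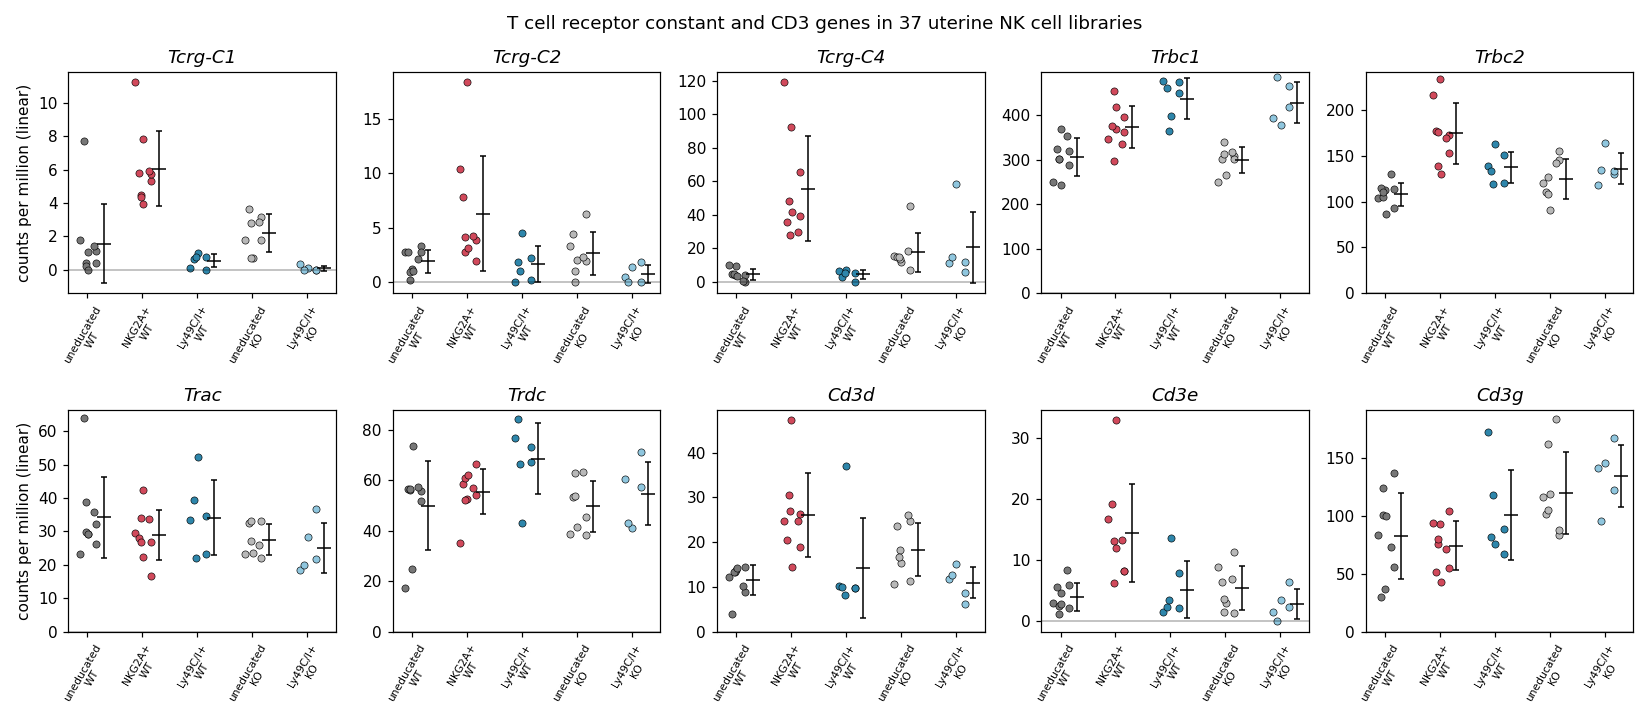
Level of each gene in CPM (linear axis) in every library, with 1 point per library, and the mean with its SD beside each group. Tcrg-C4 in NKG2A+ WT libraries lies between 28.1 and 119 CPM, above every WT uneducated and WT Ly49C/I+ library, while Trac and Cd3g overlap in all 5 groups.

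The comparison of NKG2A+ with uneducated WT cells asks which transcripts differ between cells sorted with and without NKG2A. Education through NKG2A and other differences between the sorted cells cannot be told apart. In NKG2A+ cells all 3 gamma constant genes, both beta constant genes, Cd3d and Cd3e were higher, and Trac, Trdc and Cd3g did not pass the test. Thus 7 of the 10 genes passed, all higher, beside 7.49% of the 9341 genes tested that were higher, 7.58% that were lower and 15.1% that passed in either direction. The test was the quasi-likelihood test of edgeR at a Benjamini-Hochberg adjusted p of 0.05 over all genes fitted. The median log2 fold change of the 10 genes was 0.94, beside 0.01 over all genes tested. In these bulk samples a larger share of cells with a transcript and more RNA per cell cannot be told apart.

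Tcrg-C4, a constant gene of the gamma chain, changed most. It was at 9.55, 0.0545, 9.66, 4.10, 4.66, 3.90, 0.461, 4.54 and 3.21 CPM in uneducated WT libraries 1 to 9. In NKG2A+ WT libraries 1 to 9 it was at 92.5, 38.9, 119, 65.4, 35.7, 28.1, 29.4, 48.1 and 41.6 CPM. The lowest NKG2A+ library thus lay above the highest uneducated one. Tcrg-C4 rose by 3.65 ± 0.52 on the log2 scale (SE, adjusted p = 5.27e-05). It and Trbc2 were the 2 members whose groups did not overlap, where 1.18% of all genes were higher without overlap and 2.01% did not overlap in either direction.

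Tcrg-C1 and Tcrg-C2 were low throughout. Tcrg-C1 ranged from 0 to 7.72 CPM (median 1.06) in uneducated and from 3.93 to 11.3 CPM (median 5.72) in NKG2A+ WT libraries. Only uneducated library 5 reached the NKG2A+ range, and the other 8 were at 1.80 CPM or less. The log2 fold change of Tcrg-C1 was 1.93 ± 0.62 (adjusted p = 0.0372), and 2.93 ± 0.49 (adjusted p = 0.000252) without uneducated library 5. The call for Tcrg-C1 was lost when uneducated library 1, 2, 3, 4, 6, 7 or 8 or NKG2A+ library 1 or 3 was left out (adjusted p from 0.0526 to 0.0651). Tcrg-C2 ranged from 0.230 to 3.32 CPM (median 2.13) in uneducated and from 1.95 to 18.4 CPM (median 4.13) in NKG2A+ WT libraries. These ranges overlapped, and Tcrg-C2 rose by 1.73 ± 0.48 on the log2 scale (adjusted p = 0.0169). Both genes lay under the level of 5 CPM that other genes had to reach in at least 0.5 of the libraries. With no such filter neither was called (adjusted p = 0.0971 for Tcrg-C1 and 0.0588 for Tcrg-C2), nor was Tcrg-C1 with filterByExpr (adjusted p = 0.0672), nor was Tcrg-C2 in a fit of all 5 groups (adjusted p = 0.076).

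The beta constant genes encode the part of the beta chain that all beta chains share. Trbc2 was between 86.0 and 130 CPM (median 111) in uneducated and between 131 and 234 CPM (median 173) in NKG2A+ WT libraries. These groups touched without overlap (130.4 against 130.5 CPM). Trbc2 rose by 0.70 ± 0.11 on the log2 scale (adjusted p = 0.000157). Trbc1 ranged from 244 to 369 CPM (median 302) in uneducated and from 298 to 455 CPM (median 370) in NKG2A+ libraries. The ranges of Trbc1 overlapped, with a log2 fold change of 0.30 ± 0.09 (adjusted p = 0.0316). That call was lost without uneducated library 1, 2, 3 or 8 or NKG2A+ library 4, 6 or 9 (adjusted p from 0.0513 to 0.0676), and with no filter on low levels (adjusted p = 0.07).

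Of the CD3 genes, Cd3d and Cd3e rose and Cd3g did not pass the test. Cd3e, the epsilon subunit, was at 4.72, 5.99, 3.04, 2.20, 5.68, 2.58, 8.35, 1.15 and 2.81 CPM in uneducated WT libraries 1 to 9. In NKG2A+ WT libraries 1 to 9 it was at 32.9, 8.20, 16.7, 8.31, 19.2, 6.30, 13.4, 13.1 and 12.1 CPM. The groups met only at uneducated library 7, which was above NKG2A+ libraries 2, 4 and 6. Cd3e rose by 1.84 ± 0.37 on the log2 scale (adjusted p = 0.00179). Cd3d, the delta subunit, was between 4.02 and 14.5 CPM (median 13.3) in uneducated and between 14.3 and 47.3 CPM (median 24.8) in NKG2A+ libraries. The lowest NKG2A+ library lay just below the highest uneducated one, and Cd3d rose by 1.19 ± 0.24 (adjusted p = 0.00155). Cd3g, the gamma subunit and the most abundant CD3 transcript in CPM, ranged from 29.9 to 137 CPM in uneducated and from 42.4 to 104 CPM in NKG2A+ libraries (log2 fold change -0.13 ± 0.24, adjusted p = 0.773).

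Trac and Trdc showed no called difference. Trac was between 23.1 and 64.0 CPM (median 29.7) in uneducated and between 16.6 and 42.4 CPM (median 28.0) in NKG2A+ libraries, with a log2 fold change of -0.24 ± 0.20 (adjusted p = 0.456). Trdc was between 17.3 and 73.7 CPM (median 56.1) in uneducated and between 35.0 and 66.6 CPM (median 56.9) in NKG2A+ libraries, with a log2 fold change of 0.16 ± 0.20 (adjusted p = 0.665). Without uneducated library 5, which had the highest Trac level of all libraries, the log2 fold change of Trac was -0.06 ± 0.16.

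**Figure D2:**
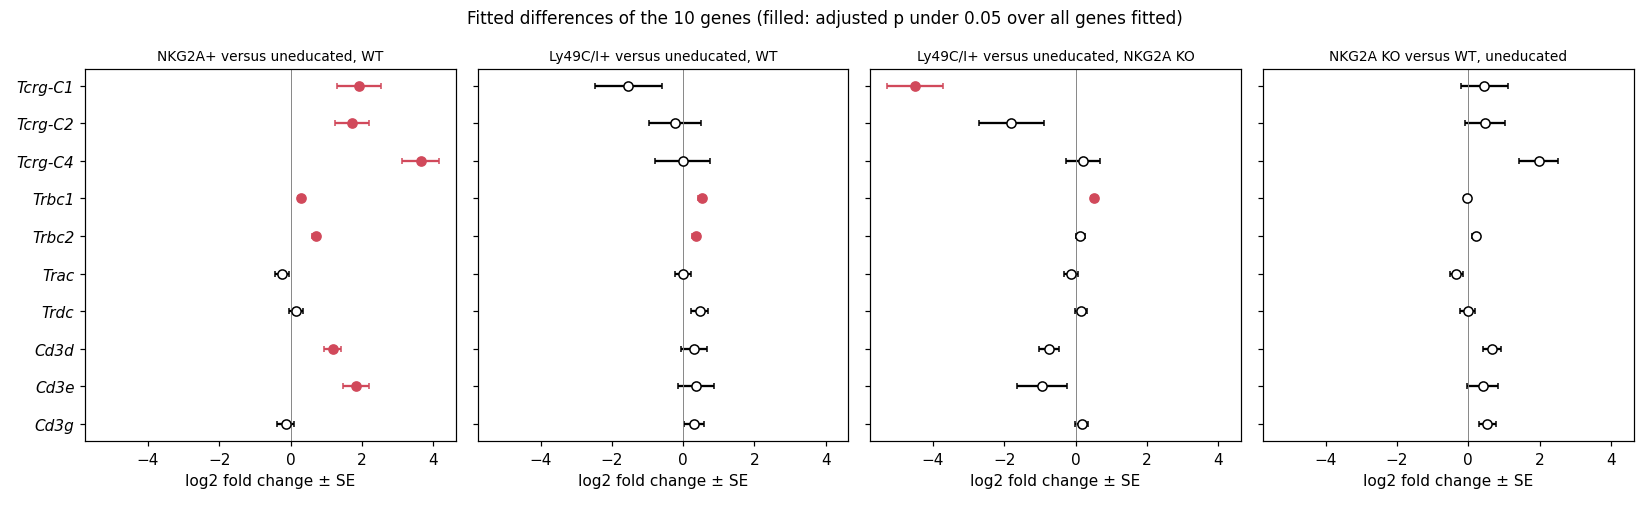
Log2 fold change with its standard error for each gene (rows) in 4 comparisons (panels), filled where the adjusted p was under 0.05. In NKG2A+ cells 7 genes are filled to the right of 0, with Tcrg-C4 farthest at 3.65, whereas Trbc1 is the only gene filled to the right in both Ly49C/I+ panels.

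The comparison of Ly49C/I+ with uneducated WT cells asks the same for cells sorted with and without Ly49C/I. It shares the uneducated WT libraries with the comparison above. In Ly49C/I+ WT cells 2 of the 10 genes passed the test, Trbc1 and Trbc2, both higher, beside 4.25% of 9296 genes that were higher, 5.05% that were lower, 9.29% that passed in either direction and 24.7% with an unadjusted p under 0.05. No member's groups were without overlap, beside 1.02% of genes that were higher and 1.4% that were lower without overlap, or 2.42% in all. Trbc1 was at 398, 451, 477, 475, 460 and 366 CPM in Ly49C/I+ WT libraries 1, 2, 4, 5, 7 and 8. Libraries 1, 2, 4, 5 and 7 lay above all uneducated WT libraries, and library 8 lay below the highest of them. Trbc1 rose by 0.53 ± 0.10 on the log2 scale (adjusted p = 0.00474). Trbc2 was between 119 and 163 CPM (median 136), and its log2 fold change of 0.36 ± 0.11 (adjusted p = 0.0416) lost its call when uneducated library 1, 2, 3, 4 or 8 or Ly49C/I+ library 1, 4, 5 or 7 was left out (adjusted p from 0.0535 to 0.0898), with filterByExpr (0.0506) and with no filter (0.0883).

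Gamma and CD3 transcripts of Ly49C/I+ WT cells were close to the uneducated range. Tcrg-C4 was at 7.12, 5.19, 6.6, 0, 2.64 and 4.90 CPM in libraries 1, 2, 4, 5, 7 and 8 (adjusted p = 0.996). All of these values lay below the highest uneducated WT library. Cd3d was at 37.0 CPM in library 1 and between 8.23 and 10.2 CPM in the other 5. Cd3e was likewise highest in library 1, at 13.6 CPM, and between 1.59 and 7.92 CPM in the others. Library 1 was not highest for Cd3g (75.2 CPM, in a group from 67.2 to 172 CPM).

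The direct comparison of NKG2A+ with Ly49C/I+ WT cells uses these same libraries again. Here 2 of the 10 genes passed the test, Tcrg-C4 and Tcrg-C1, both higher in NKG2A+ cells, beside 1.33% of 9310 genes that were higher, 1.42% that were lower and 2.75% that passed in either direction. Tcrg-C1 did not meet the 5 CPM minimum of other genes here and was fitted only as a member. Tcrg-C4 differed by 3.64 ± 0.56 on the log2 scale (adjusted p = 0.00287) and Tcrg-C1 by 3.44 ± 0.56 (adjusted p = 0.00344). All 9 NKG2A+ libraries lay above all 6 Ly49C/I+ libraries for both genes, where 0.602% of genes were higher without overlap and 1.08% did not overlap in either direction. Cd3e was higher by 1.46 ± 0.49 (adjusted p = 0.11) and Cd3d by 0.87 ± 0.34 (adjusted p = 0.165). Without Ly49C/I+ library 1 the difference was 2.02 for Cd3e (adjusted p = 0.0237) and 1.43 for Cd3d (adjusted p = 0.00482). DESeq2 called Cd3e with all libraries (adjusted p = 0.0315).

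The order of the groups differed from gene to gene. For Tcrg-C4 the group means were 55.4 ± 31.4 CPM in NKG2A+ WT (SD, n = 9), 20.4 ± 21.4 in Ly49C/I+ NKG2A KO (n = 5), 17.6 ± 11.5 in uneducated NKG2A KO (n = 8), 4.46 ± 3.36 in uneducated WT (n = 9) and 4.41 ± 2.67 CPM in Ly49C/I+ WT cells (n = 6). For Trbc1 they were 438 ± 45.6 in Ly49C/I+ WT, 429 ± 46.1 in Ly49C/I+ NKG2A KO, 373 ± 46.6 in NKG2A+ WT, 306 ± 42.1 in uneducated WT and 300 ± 29.1 CPM in uneducated NKG2A KO cells. Thus Trbc1 was highest in the Ly49C/I+ groups, in which Tcrg-C4 was lowest (WT) or intermediate (NKG2A KO). Neighbouring groups in the Trbc1 order that share a sort gate, WT and NKG2A KO, differed by less than 1 SD.

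Within NKG2A KO mice, Ly49C/I+ cells were compared with uneducated cells to ask whether the Ly49C/I+ pattern is also seen in that genotype. Without sorting on NKG2A, the gates of these mice may hold other cells than those of WT mice. Trbc1 was higher and Tcrg-C1 was lower in Ly49C/I+ cells, beside 7.33% of 9302 genes that were higher, 8.97% that were lower and 16.3% in all. Tcrg-C1 again did not meet the 5 CPM minimum and was fitted only as a member. Trbc1 was at 378, 467, 394, 419 and 486 CPM in Ly49C/I+ libraries 4 to 8 and between 250 and 341 CPM (median 305) in the 8 uneducated libraries. The groups did not overlap, and Trbc1 rose by 0.52 ± 0.09 on the log2 scale (adjusted p = 0.00112). Of all genes, 1.92% were higher without overlap, and 6.05% did not overlap in either direction. The Ly49C/I+ effect, meaning the difference between Ly49C/I+ and uneducated cells, was compared between genotypes. For Trbc1 it differed between NKG2A KO and WT mice by -0.02 ± 0.14 on the log2 scale (adjusted p = 0.998), a difference whose sign changed with the processing.

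Tcrg-C1 was at 0.108, 0, 0.353, 0 and 0 CPM in Ly49C/I+ NKG2A KO libraries 4 to 8, from 8 reads in all. In uneducated NKG2A KO libraries it was between 0.700 and 3.66 CPM (median 2.32). Every Ly49C/I+ library lay below every uneducated one, where 4.13% of genes were lower without overlap, and the fitted log2 fold change was -4.50 ± 0.79 (adjusted p = 0.00147). With so few reads the size of that fold depends on the fit. Cd3d was between 6.25 and 15.2 CPM in Ly49C/I+ and between 10.7 and 26.2 CPM in uneducated NKG2A KO libraries (log2 fold change -0.75 ± 0.28, adjusted p = 0.0789, and 0.0468 by DESeq2). Tcrg-C4 was at 58.2, 5.96, 11.4, 11.9 and 14.7 CPM in Ly49C/I+ libraries 4 to 8, so that library 4 stood far above the others. In the uneducated libraries 1 to 8 it was at 11.9, 7.09, 15.4, 45.0, 14.8, 13.7, 18.4 and 14.6 CPM, where library 4 was again highest. The labels do not say that libraries with the same number came from the same mouse.

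NKG2A KO and WT cells of the same sort gate were compared. If NKG2A KO cells lack NKG2A, their gates could not leave out cells that would otherwise have carried it. An effect of the genotype and a different make-up of the gate therefore cannot be told apart. None of the 10 genes passed in uneducated or in Ly49C/I+ cells, and edgeR's quasi-likelihood test called 0 of 9291 and 0 of 9347 genes (0% each). At an unadjusted p under 0.05 there were 620 (6.67%) and 1003 (10.7%) genes, and DESeq2 called 1 and 118. In uneducated cells Tcrg-C4 had a log2 fold change of 1.98 ± 0.55 (unadjusted p = 0.00161, adjusted p = 0.506). Of the 8 NKG2A KO libraries, 7 lay above all 9 WT libraries for Tcrg-C4. Cd3d (0.66 ± 0.25) and Cd3g (0.54 ± 0.25) were the other members with an unadjusted p under 0.05 (0.0132 and 0.0409). In Ly49C/I+ cells the log2 fold change of Tcrg-C4 was 2.20 ± 0.79 (unadjusted p = 0.0141, adjusted p = 0.37) and that of Tcrg-C1 -2.52 ± 1.10 (unadjusted p = 0.0366, adjusted p = 0.445). Cd3d differed there by -0.39 ± 0.43 (adjusted p = 0.795), and by 0.17 without Ly49C/I+ WT library 1. Cd3g differed by 0.41 ± 0.22 (adjusted p = 0.528). All 10 genes overlapped between the genotypes, beside 0.0431% of genes without overlap in uneducated cells, and in Ly49C/I+ cells 0.867% that were higher, 0.706% that were lower and 1.57% in all. A change of the Ly49C/I+ effect with genotype was called for 0 of 9325 genes, with 415 (4.45%) at an unadjusted p under 0.05 and 1 called by DESeq2. Among the members Tcrg-C1 and Cd3d reached that unadjusted threshold.

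Whether gamma, beta and CD3 transcripts rise together was examined library by library within each group, since differences between groups alone would tie them. The most abundant gene in CPM stood for each class, which was Tcrg-C4 for gamma, Trbc1 for beta and Cd3g for CD3, and Trdc was also set against Cd3g. Over the 4 groups with at least 6 libraries, 9 of 16 relations had a positive Pearson r, and 0 had a p under 0.05 in a two-sided exact permutation test, adjusted or not. In NKG2A+ WT cells (n = 9) r was -0.23 for Tcrg-C4 with Trbc1 (Spearman rho -0.27, exact permutation p = 0.543 and 0.493, adjusted p = 0.94 and 0.896). There r was 0.59 for Tcrg-C4 with Cd3g (rho 0.63, exact permutation p = 0.0928 and 0.076, adjusted p = 0.743 and 0.896), and 0.38 without libraries 1 and 3. In uneducated WT cells (n = 9) r was -0.50 for Tcrg-C4 with Trbc1 (rho -0.50, exact permutation p = 0.162 and 0.178, adjusted p = 0.865 and 0.896) and -0.94 without libraries 2 and 7, which had the lowest Tcrg-C4. The highest r was 0.69 for Trdc with Cd3g in uneducated NKG2A KO cells (n = 8, rho 0.57, exact permutation p = 0.0641 and 0.151, adjusted p = 0.743 and 0.896), and it was -0.03 without libraries 6 and 7. The number of libraries above their group's median for all 3 class genes was 0 in uneducated WT and Ly49C/I+ NKG2A KO cells and 1 in each other group.

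The genes that stood for their classes were not those that differed most between groups, so other pairs were also examined, chosen after their values were seen. Tcrg-C2 and Cd3e had a positive r in each of the 4 groups, which passed the threshold in 1 of them by Pearson's r and in 0 by Spearman's rho. Their r was 0.91 in NKG2A+ WT (n = 9, rho 0.90, exact permutation p = 0.000744 and 0.00203, adjusted over 28 relations p = 0.0208 and 0.0568) and 0.80 without libraries 1 and 3. It was 0.88 in Ly49C/I+ WT (n = 6), 0.80 in uneducated NKG2A KO (n = 8) and 0.62 in uneducated WT cells (n = 9), with rho of 0.94, 0.81 and 0.58, adjusted exact permutation p of 0.124, 0.0983 and 0.264 for r and of 0.152, 0.152 and 0.413 for rho. Without the 2 libraries farthest from the median these r were 0.64, 0.59 and 0.16. Tcrg-C4 and Cd3e had an r of 0.76 in uneducated NKG2A KO (n = 8, rho 0.90, adjusted exact permutation p = 0.0983 and 0.0639) and of -0.50 in uneducated WT cells (n = 9, rho -0.28, adjusted exact permutation p = 0.325 and 0.72), and of 0.54 and 0.37 without the 2 farthest libraries. Over the 21 pairs that join genes of different classes, r was positive for 15 in NKG2A+ WT, 16 in uneducated NKG2A KO, 11 in Ly49C/I+ NKG2A KO, 10 in Ly49C/I+ WT and 9 in uneducated WT cells.

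**Figure D3:**
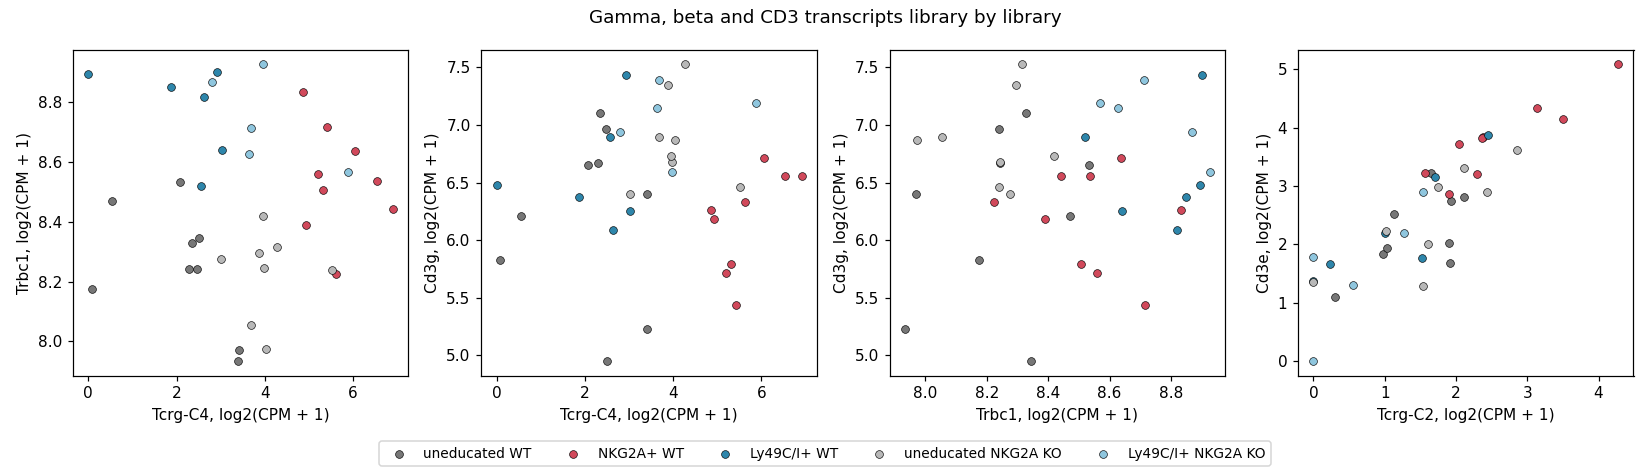
Pairs of genes on a log2(CPM + 1) scale, with 1 point per library coloured by group. Tcrg-C4 with Trbc1 (r = -0.23 within NKG2A+ WT), Tcrg-C4 with Cd3g and Trbc1 with Cd3g have r of either sign from group to group, and Tcrg-C2 with Cd3e (r = 0.91 within NKG2A+ WT) has a positive r in each group of at least 6 libraries.

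Over all 37 libraries, the genes whose levels were most like Tcrg-C4 among 9286 genes were Cd226 (r = 0.86), Tmem176a (0.83), Klrb1b (0.82), Tmem176b (0.81) and Gna15 (0.79). For Cd3g they were Psmb9 (0.69), Coro1b (0.66), Susd3 (0.65), Tjp3 (0.65) and Endov (0.64). These correlations include the differences between groups and are descriptions only. The gene most like Trbc1, a pair outside the rule for named genes and chosen after its value was seen, was Trbj1-1 (r = 0.93), and that most like Trbc2 was Trbj2-1 (0.87).

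A rearranged receptor transcript holds a V segment, so V, D and J genes were counted beside the constant genes. Each is listed by the files as a gene of its own, 260 in all. Reads on the 35 beta V genes came to 1.12% of those on the beta constant genes over all libraries, with a median of 80 reads per library against 8624. On the alpha side V reads were 6.72% of those on Trac (median 33 against 499), and on the gamma side 9.66% of those on the 3 gamma constant genes. The delta locus differed, with V reads at 88% of those on Trdc. No beta V and no alpha V gene reached a mean of 1 CPM over the 37 libraries. In NKG2A+ WT libraries beta V reads were 1.59% and alpha V reads 10.9% of constant reads, against 0.938% and 4.88% in uneducated WT. Gamma V genes summed to 6.02 and 0.948 CPM on average in these groups, at 8.9% and 12.2% of constant reads. The highest beta V sums were 19.5 CPM in NKG2A+ WT library 1 and 17.3 CPM in Ly49C/I+ WT library 1. Both libraries were also highest in their group for Cd3d. A link to the CD3 genes was not tested.

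In contrast, short D and J segments next to the beta constant genes were read in quantity. The 14 beta J genes summed to between 69.2 and 200 CPM (median 122), and 9 of them had a mean of at least 1 CPM. Trbd1 (chr6:41533201-41533212), Trbj1-1 (chr6:41533864-41533911) and Trbj1-2 (chr6:41534001-41534048), all on the plus strand of GRCm38 upstream of Trbc1, carried most of these reads. Their sequences are given because a read on the 12 bases of Trbd1 must extend past the segment.
Trbd1: gggacagggggc
Trbj1-1: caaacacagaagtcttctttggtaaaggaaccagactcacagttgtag
Trbj1-2: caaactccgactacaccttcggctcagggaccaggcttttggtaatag
Mean levels over 37 libraries were 53.5 CPM for Trbj1-1, 29.2 CPM for Trbj1-2 and 11.5 CPM for Trbd1. The other Trbj1 genes, Trbj1-3 to Trbj1-7, lay between 3.68 and 8.63 CPM, Trbj2-1 was at 7.38 CPM and Trbj2-7 at 1.36 CPM.

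Trbj1-1 had the same order of groups as Trbc1, except that WT lay below NKG2A KO among uneducated cells. It was at 40.1 ± 5.90 CPM in uneducated WT (SD, n = 9), 57.2 ± 9.27 in NKG2A+ WT (n = 9), 70.3 ± 5.09 in Ly49C/I+ WT (n = 6), 42.5 ± 5.25 in uneducated NKG2A KO (n = 8) and 68.3 ± 7.11 CPM in Ly49C/I+ NKG2A KO cells (n = 5). Trbj1-1 rose by 0.82 ± 0.12 on the log2 scale in Ly49C/I+ against uneducated WT cells (adjusted p = 0.00086), and by 0.69 ± 0.12 in NKG2A KO mice (adjusted p = 0.00155). In NKG2A+ WT cells the rise was 0.52 ± 0.12 (adjusted p = 0.00419). Trbj1-2 rose by 1.00 ± 0.15, 0.87 ± 0.17 and 0.59 ± 0.16 in the same 3 comparisons (adjusted p = 0.00107, 0.00291 and 0.0138), and Trbd1 by 0.93 ± 0.24, 0.93 ± 0.22 and 0.62 ± 0.20 (adjusted p = 0.0226, 0.0101 and 0.0399). Trbj1-5 passed in 1 of these, in Ly49C/I+ WT cells (1.20 ± 0.25, adjusted p = 0.00712). These calls for Trbd1 and the Trbj1 genes did not hold with offsets for GC content and length, under which Trbj1-1 had log2 fold changes of 0.12, -0.07 and 0.01 (adjusted p = 0.644, 0.75 and 0.976) and Trbd1 of -0.79, -0.29 and -0.06 (adjusted p = 0.107, 0.449 and 0.893). The calls for Trbc1 in Ly49C/I+ cells held with these offsets. The call for Trbd1 was also lost in NKG2A+ WT cells when any 1 of 11 libraries was left out (adjusted p from 0.0502 to 0.0751) or with no filter (adjusted p = 0.075), and in Ly49C/I+ WT cells without Ly49C/I+ library 7 (adjusted p = 0.051).

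At the delta locus Trdv4 (chr14:54074905-54075515, plus strand) and Trdv2-2 (chr14:53960944-53961602, plus strand) held most of the V reads. Trdv4 was at 25.3 ± 3.60 CPM in uneducated WT, 41.5 ± 3.98 in NKG2A+ WT, 39.4 ± 8.95 in Ly49C/I+ WT, 30.9 ± 4.94 in uneducated NKG2A KO and 53.9 ± 3.49 CPM in Ly49C/I+ NKG2A KO cells. All 9 NKG2A+ WT libraries lay above all 9 uneducated WT libraries, and Trdv4 rose by 0.72 ± 0.11 (adjusted p = 0.000157). It also rose in Ly49C/I+ cells, by 0.65 ± 0.16 in WT (adjusted p = 0.0151) and by 0.81 ± 0.14 in NKG2A KO mice (adjusted p = 0.0013), again without overlap. Trdc itself was not called in any of these. Trdv2-2 averaged 11.2 CPM and passed in none of them. Trdj1 (4.05 CPM) and Trdd2 (1.53 CPM) were the only other delta segments with a mean of at least 1 CPM.

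At the gamma locus Trgv2 (chr13:19336573-19337167, minus strand) and Trgj4 (chr13:19342152-19342212, plus strand), both next to Tcrg-C4, were the segments with a mean of at least 1 CPM. Trgj4 was at 3.02 ± 1.92 CPM in NKG2A+ WT and 0.208 ± 0.172 CPM in uneducated WT cells (SD, n = 9 each), and Trgv2 at 2.7 ± 1.88 and 0.269 ± 0.298 CPM. Their means in the other groups were between 0.0873 and 0.943 CPM. Both lay under the minimum of 5 CPM and were not tested.

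**Figure D4:**
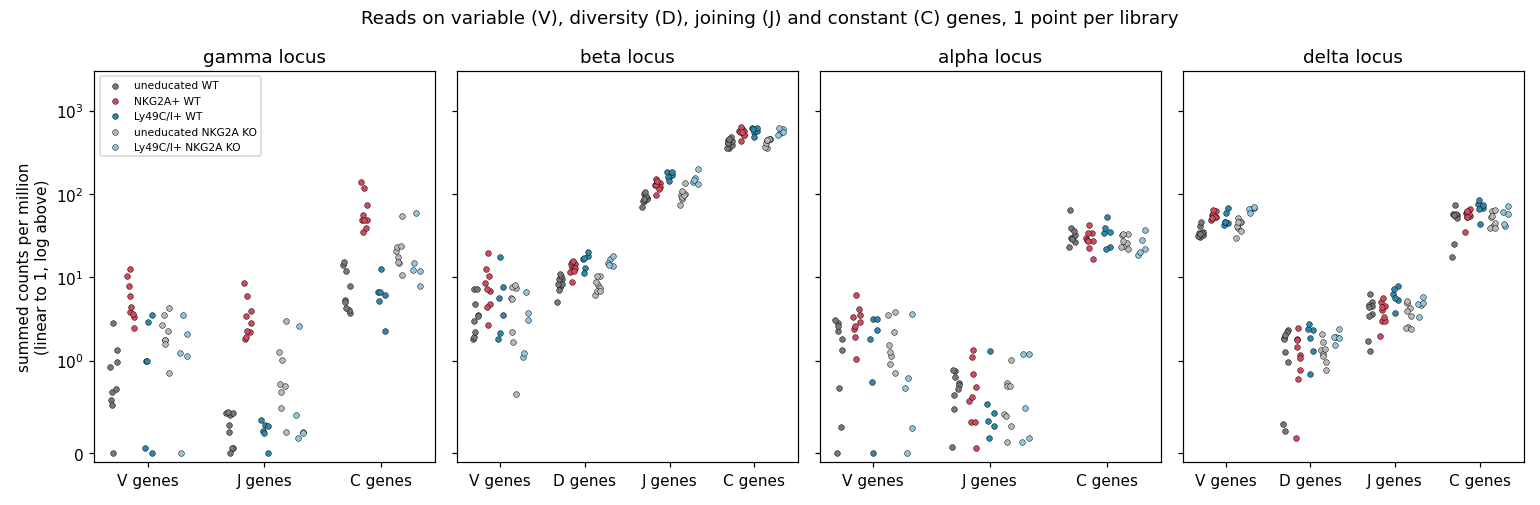
Summed CPM of the V, D, J and C genes of each receptor locus (panels), with 1 point per library coloured by group, on an axis that is linear to 1 CPM and logarithmic above. Beta V genes sum to between 0.634 and 19.5 CPM and beta J genes to between 69.2 and 200 CPM, while delta V genes reach the level of Trdc.

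The machinery of rearrangement was not read. Rag1 and Rag2, the recombinase subunits, Dntt, which adds bases at the joints, and Ptcra, which pairs with the beta chain in developing T cells, had 0 reads in each of the 37 libraries, which allows up to 3 reads or 0.226 CPM in the shallowest.

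Genes of the signalling steps next to the receptor, which NK cells also use below other receptors, were counted in the same way. Of 32 listed genes 28 were tested, and 12 rose and 1 fell in NKG2A+ against uneducated WT cells (median log2 fold change 0.27, beside 0.01 over all genes), where 7.49% of all genes rose and 7.58% fell. The 3 largest increases were in Pag1, an adaptor that holds Csk at the membrane, by 1.20 ± 0.15 on the log2 scale (adjusted p = 1.46e-05), in the adaptor Sla by 0.88 ± 0.15 (adjusted p = 0.000351) and in Grap2 by 0.82 ± 0.19 (adjusted p = 0.00512). Csk, Fyn, Lat, Lck, Lcp2, Prkcq, Ptpn22 and Ptprc were among the others that rose. Vav3, an exchange factor, fell by 0.53 ± 0.14 on the log2 scale (adjusted p = 0.0151). In Ly49C/I+ WT cells 2 of these 28 genes rose and 0 fell, a share near that of all genes (4.25% and 5.05%). They were Lck, the kinase that phosphorylates CD3 chains, by 0.63 ± 0.16 (adjusted p = 0.0193), and Ptpn22 by 0.28 ± 0.08 (adjusted p = 0.0438). The call for Ptpn22 was lost when any 1 of 11 libraries was left out (adjusted p from 0.0513 to 0.0962) and with GC and length offsets (adjusted p = 0.179), and both calls were lost with no filter (adjusted p = 0.0595 for Lck and 0.0844 for Ptpn22).

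In NKG2A KO mice 9 of the 28 genes rose and 0 fell in Ly49C/I+ cells, beside 7.33% and 8.97% of all genes, led by Pag1 (0.90 ± 0.24, adjusted p = 0.0182), Grap2 (0.89 ± 0.29, adjusted p = 0.045) and Lck (0.49 ± 0.10, adjusted p = 0.00474). The call for Pag1 was lost without Ly49C/I+ library 4 or 5 (adjusted p = 0.0636 and 0.0544), and that for Grap2 without any 1 of 10 libraries (adjusted p from 0.0541 to 0.0916), with filterByExpr (0.0696) and with no filter (0.103). Between NKG2A+ and Ly49C/I+ WT cells 3 of the 28 differed, beside 2.75% of all genes, Pag1 (0.91 ± 0.18, adjusted p = 0.0108), Sla (0.59 ± 0.12, adjusted p = 0.0143) and Ptprc (0.21 ± 0.05, adjusted p = 0.0431), all higher in NKG2A+ cells. The call for Ptprc was lost when any 1 of 10 libraries was left out (adjusted p from 0.0529 to 0.104), with the likelihood ratio test (0.051), with no filter (0.106) and in the fit of all groups (0.0634). With GC and length offsets the calls for Ptprc (adjusted p = 0.335) and Sla (adjusted p = 0.053) were lost. The zeta chain Cd247 averaged between 151 and 180 CPM and the related Fcer1g, which NK cells use with it, between 1644 and 1881 CPM in the 5 groups.

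Among 30 regulators of the T cell lineage and of receptor loci, 26 were tested in NKG2A+ against uneducated WT cells, of which 7 rose and 1 fell, beside 7.49% and 7.58% of all genes. Il7r, the interleukin 7 receptor chain whose signal opens the gamma locus in T cell development, rose by 2.51 ± 0.50 on the log2 scale (adjusted p = 0.00154), from 3.39 ± 2.76 to 19.2 ± 9.11 CPM (SD, n = 9 each). The transcription factors Maf and Ikzf2 rose by 1.73 ± 0.28 and 1.08 ± 0.31 (adjusted p = 0.000256 and 0.0214), and Ets1, Gata3, Hhex and Ikzf1 also rose. Il7r and Maf averaged 3.39 and 3.12 CPM in uneducated WT cells, so their levels in NKG2A+ cells helped them reach the minimum of 5 CPM. The 7 that rose thus include genes brought into the test by the group in which they were high. The call for Ikzf2 was lost with GC and length offsets (adjusted p = 0.0698). Tcf4 fell by 0.84 ± 0.20 on the log2 scale (adjusted p = 0.00536). In Ly49C/I+ WT cells, with 22 tested, Notch1 (1.03 ± 0.24, adjusted p = 0.0137) and Ets1 (0.45 ± 0.11, adjusted p = 0.0201) rose, while Tcf4 (-1.05 ± 0.22, adjusted p = 0.00712) and Lef1 (-0.97 ± 0.21, adjusted p = 0.00861) fell, beside 4.25% and 5.05% of all genes. The call for Ets1 was lost with no filter (adjusted p = 0.0698).

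In NKG2A KO mice 23 of these regulators were tested, and 3 rose and 3 fell in Ly49C/I+ cells, beside 7.33% and 8.97% of all genes. Tcf4, Myb and Lef1 fell by 1.08 ± 0.17, 1.08 ± 0.27 and 0.92 ± 0.18 on the log2 scale (adjusted p = 0.000882, 0.012 and 0.00294). Hhex, Ets1 and Ikzf3 rose by 0.39 ± 0.12, 0.37 ± 0.11 and 0.34 ± 0.10 (adjusted p = 0.043, 0.0285 and 0.0372), and these calls were lost when any 1 of 8, 6 and 8 libraries was left out (highest adjusted p 0.134, 0.0783 and 0.09) and with no filter (adjusted p = 0.0993, 0.0704 and 0.0913). In the fit of all groups the calls for Hhex and Ikzf3 were lost (adjusted p = 0.0974 and 0.181), with filterByExpr likewise (0.0651 and 0.0595), and with GC and length offsets that for Ikzf3 (0.0758). Between NKG2A+ and Ly49C/I+ WT cells Ikzf2 (1.88 ± 0.39), Lef1 (0.98 ± 0.21) and Ikzf1 (0.47 ± 0.10) of 26 were higher in NKG2A+ cells (adjusted p = 0.0143, 0.0171 and 0.0167), beside 1.33% of all genes. Ikzf2 averaged 4.02 CPM in Ly49C/I+ WT cells, so its level in NKG2A+ cells helped it reach the minimum of 5 CPM. The call for Lef1 was lost without Ly49C/I+ library 7 (adjusted p = 0.0511), and that for Ikzf1 in the fit of all groups (0.0501) and with GC and length offsets (0.06).

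Markers of other cells that a sort on NKp46 could hold were read beside these results. Of 20 T cell markers, Cd4, which had no read in 35 of 37 libraries, and Cd8a, with none in 34, reached at most 3.33 and 2.74 CPM, and Cd8b1, Foxp3 and Themis were likewise without a read in 30, 35 and 31 libraries. Cd5 reached 3.58 CPM, Trat1 5.665, Cd40lg 7.15 and Cd6 13.65 CPM, and Trat1 lacked reads in 10 libraries. Group means of Cd4, Cd8a, Cd5 and Trat1 were highest in NKG2A+ WT cells (0.370, 0.304, 1.15 and 1.65 CPM). Those of Cd6, Cd40lg and Themis were highest in uneducated WT cells (3.72, 1.85 and 0.426 CPM). Those of Cd8b1 and Foxp3 were highest in uneducated NKG2A KO cells. In contrast 11 of the 20 had at least 1 library at 20 CPM, among them Cd28, Icos, Ctla4, Cd2, Ubash3a, Lat, Bcl11b, Tcf7, Lef1 and Ccr7. The sum of the list was between 1196 and 1560 CPM in uneducated WT, 1482 and 1988 in NKG2A+ WT, 1411 and 1664 in Ly49C/I+ WT, 1381 and 1636 in uneducated NKG2A KO and 1416 and 1682 CPM in Ly49C/I+ NKG2A KO libraries. Its median was 1845 CPM in NKG2A+ and 1365 CPM in uneducated WT libraries. Between these groups 3 genes (Cd2 and Lat among them) were called higher and Ctla4 lower among 11 tested, beside 7.49% and 7.58% of all genes. The part of this list in the rise of the receptor and CD3 genes was not tested.

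Of 10 gamma delta T cell markers none had a library at 20 CPM. Sox13, Il23r and Ccr6 were without a read in 33, 34 and 34 libraries, and Il17a reached at most 3.00 CPM. Maf was the only one tested in NKG2A+ against uneducated WT cells, and its rise and its limit are given above. Their sum was between 4.97 and 18.7 CPM in uneducated WT, 11.9 and 21.5 in NKG2A+ WT, 3.95 and 10.2 in Ly49C/I+ WT, 8.46 and 24.4 in uneducated NKG2A KO and 5.97 and 18.5 CPM in Ly49C/I+ NKG2A KO libraries. Tcrg-C4 alone exceeded the sum of all 10 in NKG2A+ WT libraries. Of 12 markers of type 1 innate lymphoid cells, 6 rose in NKG2A+ against uneducated WT cells (Cd200r1, Cxcr3, Cxcr6, Il7r, Tmem176a and Tmem176b) and Itga1 fell, beside 7.49% and 7.58% of all genes. Cd200r1, Il7r and Tmem176a averaged 1.64, 3.39 and 4.89 CPM in uneducated WT cells, so their levels in NKG2A+ cells helped them reach the minimum of 5 CPM. Their part in the result was not tested.

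Lists for B cells, myeloid cells, erythroid cells and decidual, endothelial and epithelial cells were also read. B cell markers summed to at most 8.38 CPM in any library. Myeloid markers had a median sum of 386 CPM in uneducated, 461 in NKG2A+ and 712 CPM in Ly49C/I+ WT libraries. Erythroid markers had median sums of 586, 1368 and 1101 CPM, and decidual, endothelial and epithelial markers of 328, 210 and 201 CPM in these 3 groups. Hbb-bs and Hbb-bt of the erythroid list rose and Epcam and Pecam1 fell in NKG2A+ against uneducated WT cells, beside 7.49% and 7.58% of all genes. Their part in the differences of Tcrg-C4, Trbc1 and the other members was not tested.

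**Figure D5:**
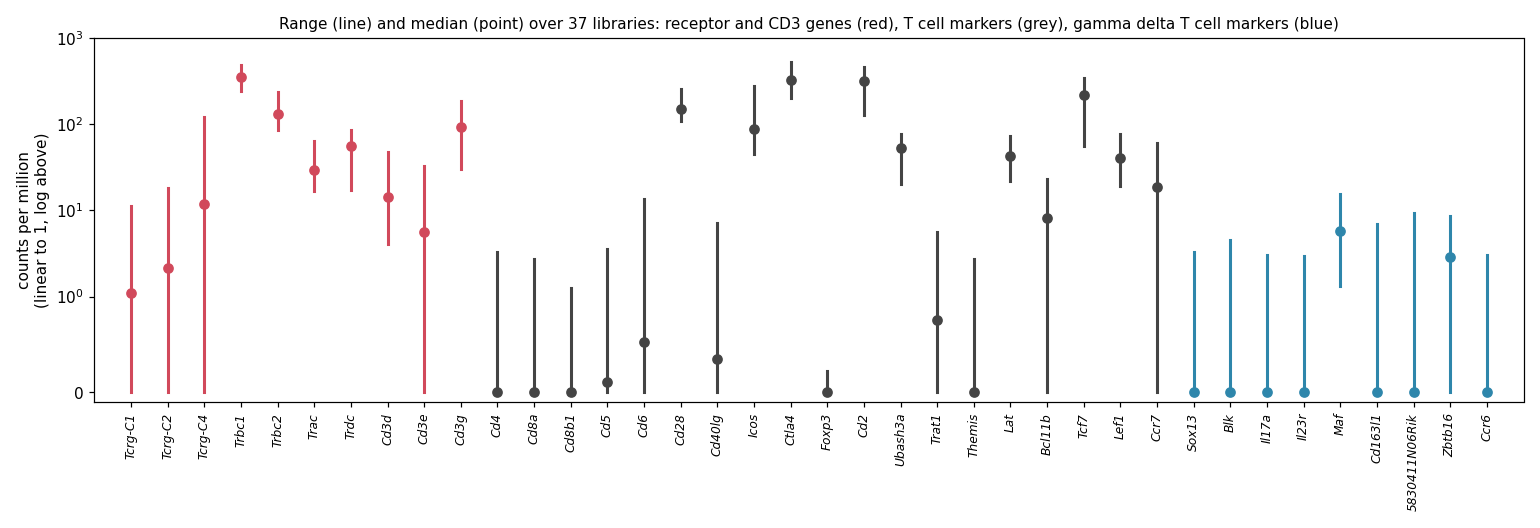
Range (line) and median (point) over 37 libraries in CPM, on an axis linear to 1 and logarithmic above, for the 10 receptor and CD3 genes and for markers of T cells and of gamma delta T cells. Cd4, Cd8a, Cd8b1, Foxp3 and Themis have a median of 0 CPM while Trbc1, Trbc2, Trac, Trdc and Cd3g do not fall below 16.6 CPM in any library.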

How the data were processed

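The authors trimmed reads with Trim Galore 0.5.0, mapped them with STAR 2.7.1 to GRCm38, and deposited 1 file per library of raw counts of reads per Ensembl gene. No program is named for the counting step in the sources used here, and the SMART-Seq and Nextera XT kits do not mark strand. The 5 summary lines of each file were left out (reads without a gene 2.69% to 6.83%, ambiguous 4.04% to 4.60%, without a unique position 11.3% to 13.8% of all). Groups came from the labels. Of 53700 identifiers 52093 had a symbol. Positions and sequences came from GENCODE M21.

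CPM used TMM factors over 37 libraries. Each comparison was fitted in edgeR 4.0.16 (R 4.3.3) with the quasi-likelihood test on its own groups, with genes at 5 CPM or more in at least 0.5 of the libraries plus the 10 members, and p adjusted by Benjamini-Hochberg over all genes fitted. Correlations used log2(CPM + 1). Scripts were tested on simulated counts. The members, lists and tests were chosen with earlier results of these data known. Named were the 10 members, the 3 sorted receptors, the 3 largest called changes in each direction of each signalling or regulator list, segments with a mean of 1 CPM or more, the 5 genes most like Tcrg-C4 and Cd3g, and markers with a library at 20 CPM. Genes named otherwise were chosen after their values were seen, and some listed genes are not reported here. Alternatives were RLE factors, a likelihood ratio test, DESeq2 1.42.0, other filters, a shared fit, a replicate block, GC and length offsets, and leaving out each library.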

Additional observations from a re-analysis of the deposited data

Results flagged for a closer look

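There were 50 sets of libraries (10 genes in 5 groups). In 8 of them the gap of 1 library to its nearest neighbour exceeded Dixon's 95% limit as a share of the group's range. Chance alone gives about 1 in 20 for independent sets of normal values. The 10 genes share their libraries and normality was not tested, so that rate is only a rough guide. In uneducated WT cells library 5 was highest for Tcrg-C1 (7.72 CPM, next 1.80 CPM) and for Trac (64.0 CPM, next 38.9 CPM). Library 4 of NKG2A KO mice was highest for Tcrg-C4 in both sorts, with 45.0 CPM in uneducated (next 18.4 CPM) and 58.2 CPM in Ly49C/I+ cells (next 14.7 CPM). Library 1 was highest for Cd3d in NKG2A+ WT (47.3 CPM, next 30.7 CPM) and in Ly49C/I+ WT cells (37.0 CPM, next 10.2 CPM), and for Cd3e in NKG2A+ WT cells (32.9 CPM, next 19.2 CPM). Trdc was lowest in NKG2A+ WT library 3 (35.0 CPM, next 52.3 CPM).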

How the results depend on the processing

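Of 1684 recomputed values for 69 gene-level results, 1505 kept their direction and their side of the threshold, 158 lost the call, 7 gained one and 14 changed sign. Genes called in Ly49C/I+ against uneducated WT cells were 864, with 451 under no filter, 1528 in a fit of all groups and 460 to 1225 when 1 library was left out. For NKG2A+ against Ly49C/I+ WT cells 256 became 441 with the likelihood ratio test, 562 with DESeq2, 104 with no filter and 129 with GC and length offsets (45 higher and 84 lower, beside 124 and 132), and 148 to 307 when 1 library was left out. For NKG2A KO Ly49C/I+ against uneducated cells 1516 became 889 with no filter and 968 to 1761 when 1 library was left out. Between genotypes the likelihood ratio test and DESeq2 each called 1 gene in uneducated cells and 62 and 118 in Ly49C/I+ cells, where the fit of all groups called 18 and fits without 1 library 0 to 15. For the change of the Ly49C/I+ effect with genotype DESeq2 called 1. Of the 10 receptor and CD3 genes, 4 in place of 7 were called in NKG2A+ against uneducated WT cells with no filter. In Ly49C/I+ against uneducated WT cells 1 in place of 2 was called with edgeR's filterByExpr and 1 with no filter, and 1 to 2 when 1 library was left out. In NKG2A+ against Ly49C/I+ WT cells 2 to 4 were called when 1 library was left out. The causes were not tested.

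With GC and length offsets Trbd1 changed sign in NKG2A+ (-0.062) and Ly49C/I+ (-0.79) WT cells and in NKG2A KO mice (-0.29), and Trbj1-1 in NKG2A KO mice (-0.065). The change of the Trbc1 effect with genotype became 0.10 with these offsets, and ranged from -0.068 to 0.033 when 1 library was left out (above 0 without NKG2A KO Ly49C/I+ library 4 or 6). Cd3d in NKG2A KO against WT Ly49C/I+ cells ranged from -0.54 to 0.17 when 1 library was left out, and was above 0 without Ly49C/I+ WT library 1.

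Replicate numbers were not used to pair libraries in the main fits, and whether they mark pairs is undecided. No pair of groups had every same-number correlation of deviations over 0.1 (4 of 9 for uneducated and NKG2A+ WT, 5 of 6 for uneducated and Ly49C/I+ WT, 2 of 6 for NKG2A+ and Ly49C/I+ WT, 2 of 5 in NKG2A KO). That cut cannot show that pairing is absent. Median same-number correlations were 0.13 for uneducated and Ly49C/I+ WT (-0.02 for other numbers) and 0.03 in NKG2A KO (-0.01). The own number was the best match in 5 of 9 for uneducated and NKG2A+ WT and 2 of 5 in NKG2A KO. Every library correlated best with its own number in 6 of 6 for both pairs with Ly49C/I+ WT, a hint from the data and not from the design, which rests on the numbers in the description of the Ly49C/I+ WT libraries where their titles differ. With the number as a replicate block, 1419, 1002, 306 and 762 genes were called in these 4 comparisons, and 5 of the 10 members in NKG2A+ against Ly49C/I+ WT cells. With block and offsets together 130 genes were called in NKG2A+ against Ly49C/I+ WT cells and 572 in NKG2A KO mice. Trbd1 was then at -0.06, -0.92 and -0.30 in NKG2A+ WT, Ly49C/I+ WT and NKG2A KO cells, Trbj1-1 at -0.16 in NKG2A KO mice, and Cd3d between Ly49C/I+ genotypes at 0.13, or 0.085 with the block alone. The block alone ended the calls for Trbd1 in these 3 comparisons (adjusted p = 0.0596, 0.0711 and 0.101), for Trbc2 in Ly49C/I+ WT cells (0.103) and, in NKG2A KO mice, for Pag1 (0.0713), Grap2 (0.192), Ets1 (0.084), Hhex (0.255) and Ikzf3 (0.138), and it gave calls for Cd3e (0.0164) and Cd3d (0.0326) in NKG2A+ against Ly49C/I+ WT cells. Block and offsets together ended those for Trdv4 (0.0501), Trbc2 (0.0593) and Notch1 (0.0852) in Ly49C/I+ WT cells, for Ikzf2 in NKG2A+ cells against uneducated (0.0789) and Ly49C/I+ (0.0677) WT cells, and for Ikzf1 (0.16), Sla (0.0774) and Ptprc (0.378) in the latter.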
